A study of Homo sapiens with 10 samples.

Results

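PHF10 knockdown was compared with its controls in 6 messenger RNA libraries of A375 human melanoma cells: 4 in which the cells had received short interfering RNA (siRNA) against PHF10 and the 2 controls of the same experiment. They were chosen by their titles (the PHF10 and control libraries of experiment 1) and are 6 of the 10 libraries of the series. A375 is an established line from a human melanoma. Cells were transfected with Metafectene Pro and collected 72 h later, and poly(A) RNA was read by strand-specific sequencing. By the protocol and the design text the controls received a control siRNA, but their own treatment field says that they were not treated. The remaining libraries, a MYC knockdown with its own controls, form a second experiment. The title of the series names transcriptional activation by MYC through PHF10 as its subject. The labels do not tell whether each library is its own culture. The p-values given below reflect library-to-library variation alone, and that variation may be technical. The word "total" in the titles of the PHF10 libraries is not explained in the sources used here, nor is the number of siRNA sequences used against PHF10.

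PHF10, also called BAF45a, is a subunit found in PBAF, the form of the SWI/SNF chromatin remodelling complex that also holds PBRM1, ARID2 and BRD7. Remodelling complexes of this family use ATP to move or evict nucleosomes, and so change which promoters and enhancers are open to transcription factors. MYC is a transcription factor that pairs with MAX and binds E-box sequences at promoters of many growth and biosynthesis genes.

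The 6 libraries held 20472465 to 26984241 reads assigned to genes, and the 17849 genes with enough reads were tested. Levels are given as CPM (read counts scaled to a common total of gene reads), made comparable between libraries, for knockdowns 1, 2, 3 and 4 in that order and then for controls 1 and 2. The libraries did not fall into their 2 groups only. Genes of the type I interferon response, which cells switch on when they sense foreign nucleic acid, were high in knockdowns 1 and 2 and in control 1 and low in the other 3. IFIT2, one of these genes, was at 94.7, 52.5, 7.89 and 18.1 CPM after knockdown and 198 and 9.13 CPM in the controls. GBP1, an interferon-induced GTPase, was at 43.5, 26.8, 6.91 and 12.9 CPM and 74.8 and 12.2 CPM. Reads outside annotated genes moved with this split: they were 13.8%, 12.3% and 12.1% of the reads in knockdown 1, knockdown 2 and control 1, and 9.93% to 10.6% in the other 3. The split crosses the 2 groups, and its part in the results was not tested beyond the fit with a term for it that is given below. Of 8 melanocyte lineage markers, 5 reached 1 CPM in a library: SOX10 was at 672, 539, 627 and 691 CPM and 765 and 886 CPM and MITF at 47.9, 22.4, 20.9 and 39 CPM and 56.8 and 39.3 CPM, while PMEL stayed at or under 1.33 CPM and MLANA and TYR at or under 0.046 CPM. The messenger RNA of the lineage factors was thus present and that of these pigment proteins near 0. Of 15 immune cell markers, 2 reached 1 CPM and 6 were at 0 in every library. In bulk RNA such as this, fewer cells of a type and less RNA per cell cannot be told apart.

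After PHF10 knockdown, 23 genes rose (0.129% of those tested) and 27 fell (0.151%), at a Benjamini-Hochberg adjusted p under 0.05 in edgeR's quasi-likelihood test on these 6 libraries. In each of the 50, all 4 knockdown libraries lay on the same side of both controls. Rises ran from 1.07 to 4.61 on the log2 scale and falls from -0.88 to -3.14. Their adjusted p-values lay between 0.0349 and 0.0494, so the list ends close to the threshold; ZNF853 and ARHGEF4 were the last genes inside it, and UCK2 and ITGA2 (both at 0.0523) the nearest outside. With upper-quartile scaling, 22 genes passed as higher and 13 as lower, and these held 35 of the 50. The calls also need all 6 libraries. Without knockdown 1 only PTHLH passed, and without knockdown 2 only PTHLH and ATP6V0A4. Without knockdown 3, knockdown 4, control 1 or control 2, edgeR called 0 genes, with 2557, 2545, 1858 and 1449 at an unadjusted p under 0.05.

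A wider view came from 2 further fits of the same contrast, both with all of the 50 genes among their calls. The fit of all 10 libraries borrows its spread from the quieter second experiment (biological coefficient of variation 21.4%, against 26.7% in experiment 1 alone), so its p-values are small for this contrast. It called 508 genes higher (2.75%) and 661 lower (3.58%). A term for the interferon split, in the 6 libraries, gave 141 higher (0.790%) and 216 lower (1.21%). The split was chosen from the values of these same libraries, so the p-values of that fit may also be too small. Without any test, 2406 genes (13.5%) had all 4 knockdown libraries above both controls and 2504 (14.0%) had all 4 below. Below, "rose" and "fell" are kept for the 50 genes, and other genes are given by their levels and the fit they passed. DESeq2 on the same 6 libraries called 511 genes higher and 516 lower, and limma-voom 17 and 14. All of the 50 genes were among the DESeq2 calls, but only 30 among those of limma-voom.

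**Figure D1:**
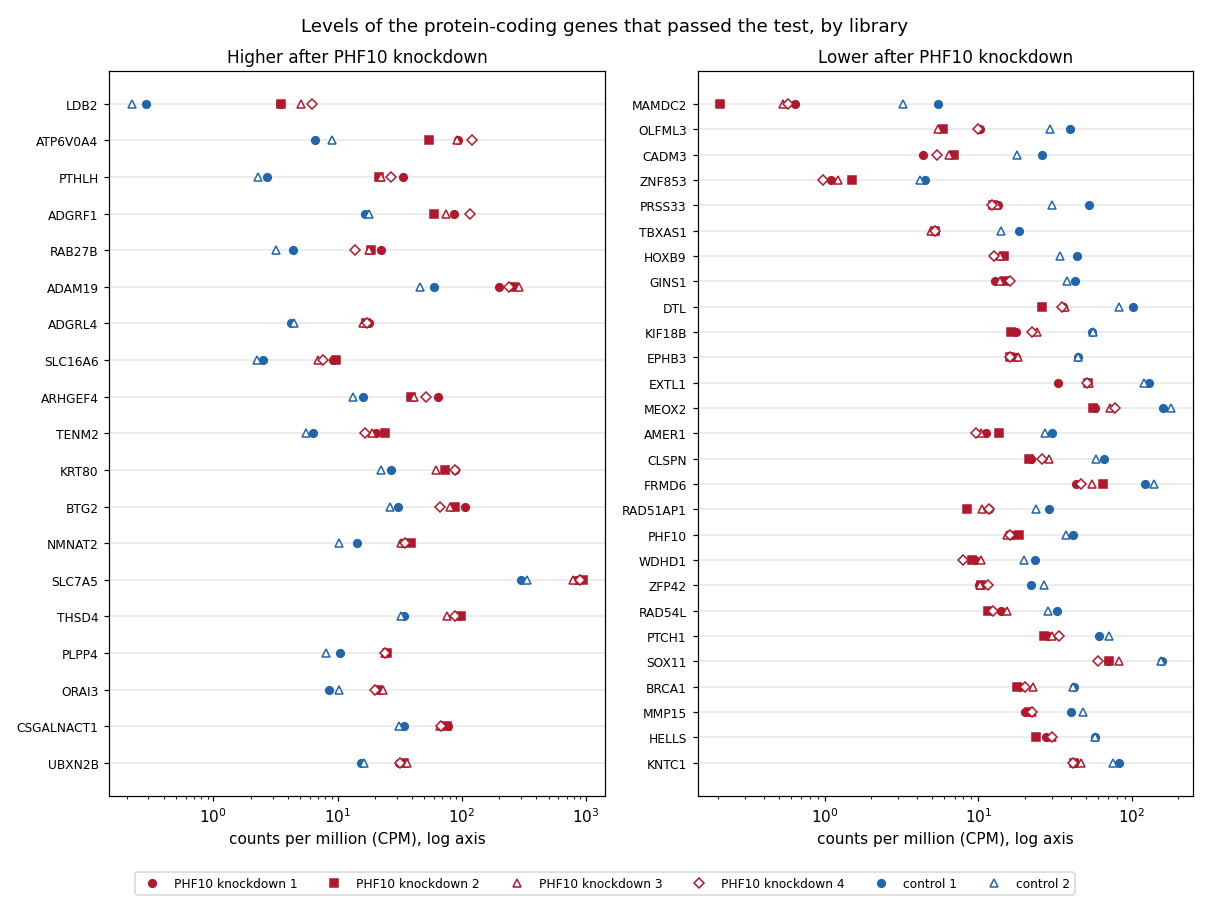
Level of each protein-coding gene that passed the test, in CPM (log axis), 1 symbol per library; red symbols are PHF10 knockdowns, blue symbols controls, and filled symbols the 3 libraries with high interferon genes. In all 19 genes on the left the 4 red symbols lie above both blue ones, and in all 27 on the right below them.

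The direction could be read in every library. Knockdowns 1, 2, 3 and 4 had 6933, 6915, 6742 and 6483 genes above both controls and 6926, 6819, 6717 and 6422 below both. Over the 23 genes that rose, the smallest difference from the mean of the controls was 0.98 in knockdown 1, 1.10 in knockdown 2, 1.04 in knockdown 3 and 0.99 in knockdown 4 (log2 CPM). Over the 27 that fell, the differences nearest 0 were -0.89, -0.92, -0.77 and -0.92. Because the groups overlapped in none of the 50, each gene necessarily had the same direction on both sides of the interferon split. Those sides are knockdowns 1 and 2 against control 1 and knockdowns 3 and 4 against control 2. The shared direction is therefore no separate check of the calls.

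**Figure D2:**
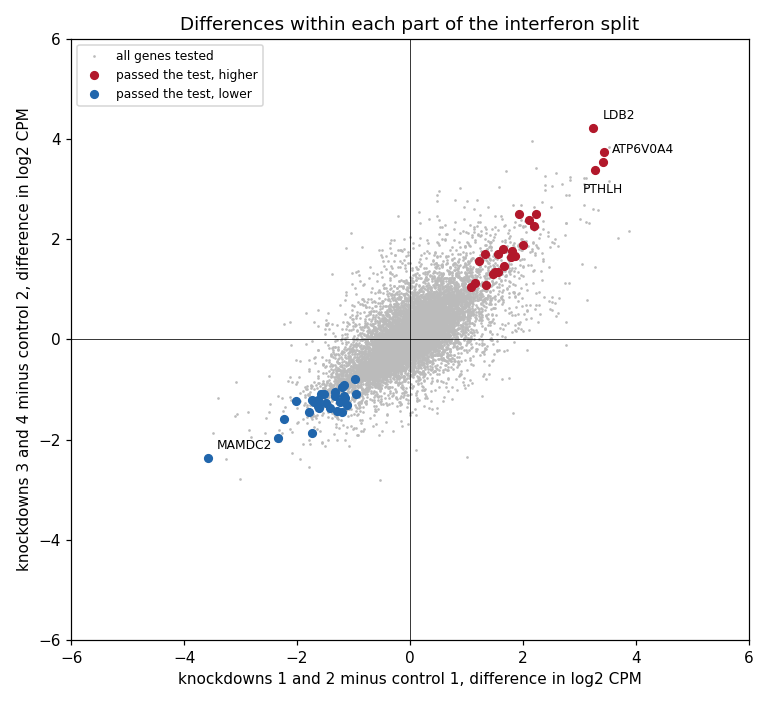
Each point is a gene, placed by its difference in log2 CPM between knockdowns 1 and 2 and control 1 (horizontal axis) and between knockdowns 3 and 4 and control 2 (vertical axis); grey points are all genes tested. The genes that passed the test (red higher, blue lower) all have the same sign on both axes, which follows from the lack of overlap between their groups.

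The promoters of 4 genes that passed are shown because they hold letters that MYC, TEAD, AP-1 or E2F factors are known to bind. Sequences are from RefSeq (build GRCh38.p14), 250 bases before to 50 after the start, written 5′ to 3′ on the gene's strand, with matches in capitals. SLC7A5 (chr16:87869458-87869757, minus strand), which rose, holds an E-box 130 bases before the start.
SLC7A5: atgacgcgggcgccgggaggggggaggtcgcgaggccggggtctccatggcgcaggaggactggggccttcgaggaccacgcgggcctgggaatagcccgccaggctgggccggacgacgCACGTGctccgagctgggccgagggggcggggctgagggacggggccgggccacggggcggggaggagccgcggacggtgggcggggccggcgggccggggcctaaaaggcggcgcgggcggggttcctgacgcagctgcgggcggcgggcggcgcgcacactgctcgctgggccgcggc
HELLS (chr10:94545538-94545837, plus strand), which fell, holds CCAAT, the TEAD letters and, 8 bases before the start, the E2F letters.
HELLS: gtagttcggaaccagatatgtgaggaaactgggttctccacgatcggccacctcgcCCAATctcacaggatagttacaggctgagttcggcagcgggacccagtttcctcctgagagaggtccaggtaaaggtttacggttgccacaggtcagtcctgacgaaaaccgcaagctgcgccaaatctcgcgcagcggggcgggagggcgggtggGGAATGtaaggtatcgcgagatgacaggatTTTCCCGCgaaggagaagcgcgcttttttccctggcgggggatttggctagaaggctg
TBXAS1 (chr7:139829014-139829313, plus strand), which fell, holds the AP-1 letters and, overlapping them, the TEAD letters on the other strand.
TBXAS1: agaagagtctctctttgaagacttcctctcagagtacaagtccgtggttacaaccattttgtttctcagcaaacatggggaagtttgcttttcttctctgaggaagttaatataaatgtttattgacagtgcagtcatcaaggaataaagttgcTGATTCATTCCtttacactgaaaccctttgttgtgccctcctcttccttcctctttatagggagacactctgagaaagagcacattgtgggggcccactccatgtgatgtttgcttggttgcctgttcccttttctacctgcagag
MAMDC2 (chr9:70043331-70043630, plus strand), which fell furthest, holds the TEAD letters 3 times, at 161, 134 and 107 bases before the start.
MAMDC2: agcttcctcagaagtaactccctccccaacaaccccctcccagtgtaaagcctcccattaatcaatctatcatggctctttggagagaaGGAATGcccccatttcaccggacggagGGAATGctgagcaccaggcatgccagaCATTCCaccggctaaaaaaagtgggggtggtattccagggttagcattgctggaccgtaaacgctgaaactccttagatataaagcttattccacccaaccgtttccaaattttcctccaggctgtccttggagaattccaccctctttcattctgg
A match is a run of letters and not a site shown to be bound in these cells.

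The letters searched, on both strands, were CACGTG (E-box), TGANTCA (AP-1), TGACGTCA (cAMP response element), GGAATG (TEAD), TTTCCCGC (E2F), CCAAT and the interferon-stimulated response element. RefSeq promoters were matched for 11132 tested protein-coding genes, 14 of them among the genes that rose and 24 among those that fell. The E-box was in 10.0% of all of these promoters, in 3 of the 14 and in 0 of the 24. Among genes called with all 10 libraries it was in 8.28% of the higher and 7.02% of the lower promoters. The TEAD letters were in 11.1% of all promoters, in 4 of the 14 and in 7 of the 24, but in 13.7% of the higher and 12.9% of the lower promoters called with all 10 libraries, close to the share over all. CCAAT was in 37.0% of all, in 2 of the 14 and in 13 of the 24 (33.8% and 45.2% with all 10 libraries). The E2F letters were in 278 of all 11132, in 0 of the 14 and in 2 of the 24. With all 10 libraries they were in 3 of 314 higher (0.955%) and 35 of 513 lower promoters (6.82%). The AP-1 letters were in 4.75% of all, in 1 of the 14 and in 2 of the 24. With all 10 libraries they were in 6.37% of the higher and 3.12% of the lower promoters. The cAMP response element was in 3.15% of all, in 0 of the 14 and in 1 of the 24. The interferon-stimulated response element was in 2.98% of all, in 1 of the 14 and in 1 of the 24. In 28 of the 38 windows the RefSeq start lies within 100 bases of a transcript start in GENCODE 29. For the other 10 the window may lie away from the start used in A375.

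PHF10 itself (chromosome 6, 169703905 to 169725566, GRCh38, GENCODE 29) was at 16.5, 18.3, 15.4 and 16.1 CPM in the knockdown libraries and 41.2 and 37.4 CPM in the controls. Every knockdown library had less than 0.5 of either control. It fell by 1.24 ± 0.14 (SE) on the log2 scale (adjusted p = 0.0372). The other subunits particular to PBAF did not pass the test. ARID2, which holds the complex on DNA, was at 46.4, 41.7, 44.97 and 44.5 CPM and 45.6 and 52.95 CPM. BRD7, a bromodomain subunit, was at 60.2, 71.1, 70.1 and 62.02 CPM and 75.8 and 70.5 CPM, and PBRM1, with several bromodomains, at 60, 59.1, 67.8 and 64.8 CPM and 54.05 and 61.5 CPM. All 3 overlapped between the groups, with adjusted p of 0.631, 0.638 and 0.71. Among 24 other SWI/SNF subunits, edgeR called 0, with 5 at an unadjusted p under 0.05 (DESeq2 called 1 and limma-voom 0). With all 10 libraries it called BICRAL, a subunit of the non-canonical complex, higher (adjusted p = 0.0336) and ARID1A, the subunit that defines the BAF complex, lower (adjusted p = 0.0413). ARID1A was at 109.9, 104, 125 and 105 CPM after knockdown and 145 and 156 CPM in the controls, which did not overlap. MYC was at 13.2, 9.90, 14.9 and 22.5 CPM and 20.8 and 32.8 CPM: knockdown 4 reached above control 1, and the adjusted p was 0.28. MAX, its partner, was at 35.2, 56.5, 51.4 and 32.03 CPM and 66.1 and 61.9 CPM, below both controls in every knockdown library (adjusted p = 0.329).

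Among secreted hormones and growth factors, PTHLH rose in every library. PTHLH (chromosome 12, 27958084 to 27972705) encodes parathyroid hormone-related protein, a secreted regulator of calcium and of skin and bone development. It was at 33.9, 21.7, 22.4 and 27.02 CPM after knockdown and at 2.72 and 2.29 CPM in the controls. Even the lowest knockdown library, knockdown 2, stood well above both. The rise was 10.4-fold (log2 3.38 ± 0.27 (SE), adjusted p = 0.0349). The list of 16 calcium and phosphate hormone genes had 5 members apart and higher (31.2%) and 1 apart and lower, with a median log2 fold change of 0.52 against 0.02 over all genes. STC1, the secreted protein stanniocalcin, was at 418, 117, 91.1 and 256 CPM and 39.1 and 24.4 CPM. It was above both controls in each library, but knockdowns 1 and 4 stood far above knockdowns 2 and 3, and of the 3 edgeR fits it passed only that of all 10 libraries (adjusted p = 0.0288, against 0.119 in experiment 1). CYP24A1, which breaks down active vitamin D, was low throughout, at 0.321, 0.952, 0.531 and 0.311 CPM and 0.0954 and 0.0441 CPM.

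In the EGF family list edgeR called 0 of 14 in experiment 1, with 4 at an unadjusted p under 0.05 (DESeq2 called 2 higher and 1 lower, limma-voom 0). TGFA, a ligand of the EGF receptor, was at 1074, 977, 931 and 1020 CPM and 620.5 and 594 CPM, close together within each group (log2 0.72 ± 0.17 (SE)). It passed with all 10 libraries (adjusted p = 0.012) and with the term for the split (0.041). AREG, the ligand amphiregulin, was at 54.6, 20.4, 10.5 and 17.3 CPM and 6.68 and 3.04 CPM, with knockdown 1 above the rest, and passed none of the 3 edgeR fits (adjusted p = 0.185; 0.0665 with all 10). ERBB3, a receptor of the same family and one for neuregulins, was lower, at 719, 487, 584 and 627 CPM against 1049 and 998 CPM (adjusted p = 0.0211 with all 10). Of the 14, 4 (28.6%, against 13.5% over all genes) were apart and higher and 1 apart and lower, and with all 10 libraries 1 passed in each direction.

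Other growth factors and receptors lay apart in both directions. MET, the receptor of hepatocyte growth factor, was at 261, 228, 174 and 199 CPM and 111 and 95.6 CPM, with all 4 knockdown libraries higher (log2 1.06 ± 0.20 (SE)). NRP2, a co-receptor for semaphorins and VEGF, was at 312, 391, 332 and 316 CPM and 202 and 182 CPM. Both passed with the term for the split (adjusted p = 0.0389 and 0.0462) and not without it (0.0752 and 0.0919). PTN, the secreted growth factor pleiotrophin, was lower in every knockdown library, at 4.31, 5.22, 4.17 and 3.24 CPM against 13.98 and 10.3 CPM (adjusted p = 0.0389 with that term). TYRO3, a receptor tyrosine kinase related to AXL, was at 70.8, 55.5, 62.04 and 74.5 CPM against 106 and 123 CPM and passed with all 10 libraries (adjusted p = 0.0089). Of the list's 43 genes, 8 were apart and higher (18.6%, against 13.5% over all genes) and 5 apart and lower (11.6%, against 14.0%). With all 10 libraries 2 passed as higher and 4 as lower.

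In the cytokine list, 9 of 39 genes were apart and higher and 2 apart and lower. With all 10 libraries 6 passed as higher and 0 as lower, but with the term for the split 2 passed as higher and 3 as lower. IL7R, the receptor subunit for interleukin 7, was at 36.7, 64.1, 47.9 and 35.8 CPM and 19.1 and 8.96 CPM. LIF, a cytokine of the interleukin 6 family, was at 131, 150.5, 120 and 107 CPM and 79.6 and 57.7 CPM. IL1A was at 40.9, 20.9, 15.3 and 31.2 CPM and 9.40 and 6.35 CPM. In all 3 the lowest knockdown library was above the higher control, and their adjusted p with all 10 libraries was 0.0157, 0.0162 and 0.0222. The median of the whole list, however, was 0.50 and 0.43 in knockdowns 1 and 2 and -0.08 and -0.02 in knockdowns 3 and 4, on the sides of the interferon split. Of 24 NF-kB feedback and target genes, 1 passed with all 10 libraries: IRAK2, a kinase of the interleukin 1 and Toll-like receptor pathway, at 20.6, 12.9, 11.4 and 14.2 CPM and 5.82 and 5.78 CPM (adjusted p = 0.0109).

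Adhesion G protein-coupled receptors, which have long extracellular domains, supplied 2 of the genes that rose. ADGRF1 (chromosome 6, 46997703 to 47042363) was at 86.2, 60.4, 74.5 and 117 CPM and 16.7 and 17.9 CPM. Its knockdown values varied, but the lowest was more than 3 times the higher control. The rise was 4.87-fold (log2 2.28 ± 0.28 (SE), adjusted p = 0.0396). ADGRL4, known from blood vessel lining, was at 17.8, 16.9, 16.1 and 17.4 CPM and 4.25 and 4.46 CPM. Both groups were tight, and the rise was 3.91-fold (log2 1.97 ± 0.17 (SE), adjusted p = 0.0349). The summed level of the endothelial marker list overlapped between the groups: it was 71.9 to 277 CPM after knockdown and 79.7 and 105 CPM in the controls, and CLDN5 was at 0 in every library. KDR, a VEGF receptor, made up most of that range, at 204, 7.45, 14.8 and 107 CPM and 59.3 and 45.8 CPM. ROBO4, a guidance receptor of that list, did not overlap and went the same way as ADGRL4, at 43.5, 26.9, 36.4 and 50.04 CPM and 14.4 and 12 CPM (2.97-fold; adjusted p = 0.062, 0.00572 with all 10 libraries). It was the only one of the 8 list genes tested that stood apart, and the part of such cells in the ADGRL4 values was not tested. ADGRA2, another adhesion receptor, was lower, at 15.2, 16.7, 17.9 and 15.97 CPM against 36.4 and 29.9 CPM (adjusted p = 0.0549; 0.041 with the term for the split). NTSR1, the neurotensin receptor, was higher at 8.44, 9.44, 8.39 and 5.86 CPM against 2.43 and 1.41 CPM (adjusted p = 0.0593; 0.0389 with that term). The wider list of G protein-coupled receptors is not limited to adhesion receptors and does not hold ADGRL4. Of its 55 tested genes, 8 were apart and higher and 8 apart and lower, near the background of 13.5% and 14.0%.

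Guidance receptors gave 1 rise and 1 fall. TENM2, or teneurin-2, a large surface protein that binds adhesion receptors on neighbouring cells, was at 20.6, 24.1, 18.9 and 16.8 CPM and 6.34 and 5.60 CPM. All 4 knockdown libraries were more than 2.5 times the higher control, and the rise was 3.36-fold (log2 1.75 ± 0.21 (SE), adjusted p = 0.0396). EPHB3, a receptor kinase for membrane-bound ephrin-B ligands, was at 17.6, 15.98, 18.1 and 16.02 CPM and 44.9 and 44.3 CPM. Its 4 knockdown values were close together and far below the controls, and it fell by 1.40 ± 0.13 (SE) on the log2 scale (adjusted p = 0.0349). No other gene of that list of 56 passed in experiment 1.

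In the Hedgehog and Notch list, PTCH1 fell. PTCH1 is the receptor that holds the pathway off until a Hedgehog ligand binds, and is itself switched on by the pathway. It was at 28.4, 26.8, 30.02 and 33.8 CPM and 61.2 and 71.5 CPM, with no overlap, and fell by 1.16 ± 0.14 (SE) (log2; adjusted p = 0.0396). GLI3, a transcription factor of the pathway, was lower at 47.8, 43.8, 48.9 and 46.98 CPM against 61.3 and 69.7 CPM (adjusted p = 0.0222 with all 10 libraries). The surface proteins CDON and GAS1, which help Hedgehog ligands bind, went opposite ways: CDON was at 65.7, 83.7, 72.5 and 72.6 CPM against 46.2 and 39.4 CPM, and GAS1 at 3.76, 4.64, 5.92 and 5.10 CPM against 9.78 and 9.09 CPM. Both passed with all 10 libraries (adjusted p = 0.0082 and 0.0133) and not in experiment 1 (0.0811 and 0.107). JAG1, a Notch ligand, was higher at 126, 86.5, 66.3 and 85.8 CPM against 46.2 and 28.6 CPM (adjusted p = 0.0475 with the term for the split). Of the 29 genes tested, 9 (31.0%) were apart and lower and 4 apart and higher, and the list's median lay below 0 in all 4 knockdown libraries (-0.28, -0.31, -0.48 and -0.17).

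AMER1 and FRMD6, tied to WNT and Hippo signalling, both fell. AMER1, a membrane-bound partner of APC in the control of beta-catenin, was at 11.2, 13.6, 10.4 and 9.67 CPM and 30.3 and 27.3 CPM. All 4 knockdown libraries lay well below both controls, and AMER1 fell by 1.36 ± 0.18 (SE) (log2; adjusted p = 0.0408). FRMD6, a FERM-domain protein linked to the Hippo pathway, was at 43.2, 65.1, 55.4 and 46.6 CPM and 123 and 139 CPM and fell by 1.31 ± 0.18 (SE) (adjusted p = 0.0464). FZD7, a receptor for WNT proteins, was lower at 41.2, 34.9, 36.3 and 45.03 CPM against 72.6 and 80.96 CPM (adjusted p = 0.0577; 0.041 with the term for the split). WNT9A, a ligand, was higher at 3.99, 11.2, 17.2 and 10.8 CPM against 1.67 and 2.34 CPM, with knockdown 3 at the top (adjusted p = 0.0233 with all 10 libraries). In the list of 23 YAP and TEAD target genes edgeR called 0, in experiment 1 and with all 10 libraries, and 1 gene had an unadjusted p under 0.05 (DESeq2 and limma-voom called 0). Its median lay below 0 in each knockdown library, from -0.33 to -0.06.

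In the TGF-beta and BMP list of 43 genes, 5 passed as higher and 4 as lower with all 10 libraries. LTBP3, which stores latent TGF-beta in the matrix, was at 733, 752, 761 and 748 CPM and 454 and 471 CPM, a narrow and fully separate pair of ranges (log2 0.69 ± 0.16 (SE); adjusted p = 0.0111 with all 10). BMPR1A, a BMP receptor, was at 48.2, 46.8, 43.4 and 48.9 CPM and 69.2 and 65.4 CPM (log2 -0.52 ± 0.12 (SE); adjusted p = 0.0124 with all 10, 0.106 in experiment 1). FSTL3, a secreted binder of activin, was higher at 84.5, 53.8, 45.4 and 63.6 CPM against 32.1 and 23.6 CPM, and CHRDL1, a BMP antagonist, lower at 21.1, 13.1, 26.5 and 37.4 CPM against 45.4 and 127 CPM. Both passed with all 10 libraries (adjusted p = 0.023 and 0.0335) and not in experiment 1 (0.109 and 0.13). The 2 controls of CHRDL1 themselves differed by more than 2 times.

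Integrins, the receptors that tie cells to the matrix, stood apart more often on the higher side: 7 of 21 (33.3%) were apart and higher and 2 apart and lower. The median log2 fold change was 0.46, and the medians in knockdowns 1 to 4 were 0.58, 0.70, 0.40 and 0.39. ITGA2, a subunit of a collagen receptor, was at 488, 467, 279.9 and 322 CPM and 106 and 78.1 CPM. It missed the threshold by little (log2 2.08 ± 0.30 (SE), adjusted p = 0.0523) and passed with the term for the split (0.0261). ITGAV, a subunit of fibronectin and vitronectin receptors, was at 151, 169.8, 139.9 and 138 CPM and 94.9 and 108 CPM (adjusted p = 0.026 with all 10 libraries). ITGAX, best known from myeloid cells, was at 31.9, 20.9, 14.3 and 22.7 CPM and 9.30 and 5.96 CPM (adjusted p = 0.101, and 0.0265 with all 10 libraries). Of the immune markers only LYZ and CD14 reached 1 CPM beside it, LYZ at 30.1, 12.1, 13.4 and 31.1 CPM and 12.8 and 11.96 CPM. ITGA9 went the other way, at 12.7, 19.7, 27.1 and 16.1 CPM against 45.3 and 91.2 CPM (adjusted p = 0.00922 with all 10). In edgeR on experiment 1, 0 of the 21 passed, with 9 at an unadjusted p under 0.05. DESeq2 called 6 higher and 1 lower, limma-voom 1 higher, and the fit of all 10 libraries 6 higher and 1 lower.

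Among other adhesion molecules CADM3, an immunoglobulin-like protein of nerve cell contacts, fell. It was at 4.36, 6.96, 6.41 and 5.37 CPM and 26.2 and 17.8 CPM, a fall of 1.93 ± 0.24 (SE) on the log2 scale (adjusted p = 0.0396). The ranges were well apart. SLITRK6, a neuronal membrane protein, was higher at 154, 197, 220.1 and 257 CPM against 90.3 and 115 CPM (adjusted p = 0.0443 with the term for the split). F11R, a junctional adhesion molecule, was higher at 30.5, 32.3, 22.9 and 19.6 CPM against 14.4 and 12.9 CPM, and NECTIN1 lower at 32.4, 17.5, 20.98 and 34.3 CPM against 48.5 and 56.8 CPM. Of the 3 edgeR fits both passed only that of all 10 libraries (adjusted p = 0.026 and 0.0375, against 0.124 and 0.146 in experiment 1).

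Of the extracellular matrix genes that passed, some rose and others fell. MAMDC2, a secreted protein with MAM domains, had the largest fall: it was at 0.642, 0.207, 0.531 and 0.577 CPM and 5.44 and 3.22 CPM (log2 -3.14 ± 0.42 (SE), adjusted p = 0.0456). Its level was low in every library, and lowest in knockdown 2. OLFML3, a secreted olfactomedin-like protein, was at 10.2, 5.84, 5.46 and 9.98 CPM and 39.4 and 29.2 CPM and fell by 2.12 ± 0.29 (SE) (adjusted p = 0.0464). Knockdowns 1 and 4 were higher than 2 and 3, and all were under both controls. THSD4, which binds fibrillin microfibrils, rose 2.7-fold, from 34.2 and 32.5 CPM in the controls to 96.5, 98.9, 76.7 and 88.2 CPM (adjusted p = 0.0366). CSGALNACT1, an enzyme that starts chondroitin sulfate chains, rose 2.21-fold, from 34.2 and 31.02 CPM to 77.2, 75.7, 67.1 and 68.6 CPM (adjusted p = 0.0396). EXTL1, a glycosyltransferase of the heparan sulfate family, was at 33.3, 52.1, 52.4 and 51.1 CPM and 129 and 119.7 CPM and fell by 1.40 ± 0.20 (SE) (adjusted p = 0.0474). Of the 73 matrix glycoprotein and proteoglycan genes, 11 were apart and higher (15.1%) and 13 apart and lower (17.8%). These shares are near the 13.5% and 14.0% over all genes.

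Collagen genes that stood apart were mainly higher (9 of 31, against 2 lower), although the median of the list was 0.01. COL4A6, a basement membrane collagen, was at 3.67, 4.35, 1.67 and 1.77 CPM and 0.382 and 0.132 CPM (log2 3.47 ± 0.67 (SE); adjusted p = 0.0261 with the term for the split, 0.0796 without). COL6A3, a chain of the beaded-filament collagen, was at 18.03, 23.02, 15.2 and 12.6 CPM and 6.73 and 5.25 CPM (adjusted p = 0.0389 with that term). COL3A1, a fibrillar collagen typical of fibroblasts, was at 3.67, 1.86, 1.56 and 3.81 CPM and 0.429 and 0.176 CPM (adjusted p = 0.0811, and 0.0141 with all 10 libraries). These are low levels. The fibroblast marker list summed to 47.5 to 84.1 CPM after knockdown and 47.1 and 75.3 CPM in the controls, which overlap, with 2 of its 8 tested genes apart and higher. COL5A3 was lower, at 11.9, 10.7, 11.2 and 9.10 CPM against 57.3 and 22.1 CPM, with controls that differed from each other by more than 2.5 times. Its adjusted p was 0.0627, and 0.0475 with the term for the split.

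Among membrane and secreted proteases, ADAM19 rose and MMP15 and PRSS33 fell. ADAM19 (chromosome 5, 157395534 to 157575775), a membrane metalloproteinase that sheds growth factors such as neuregulins, was at 200, 265, 288 and 241 CPM and 60.4 and 46.4 CPM. All 4 knockdown libraries were more than 3 times either control, and the rise was 4.66-fold (log2 2.22 ± 0.22 (SE), adjusted p = 0.0349). MMP15, a membrane-type matrix metalloproteinase, was at 20.1, 21.4, 22.4 and 22.4 CPM and 40.4 and 48.1 CPM and fell by 1.04 ± 0.14 (SE) (adjusted p = 0.043). PRSS33, a serine protease, was at 13.5, 12.5, 13.3 and 12.2 CPM and 53 and 30.1 CPM; it fell by 1.69 ± 0.22 (SE) (adjusted p = 0.0408), though the controls lay far from each other. The secreted inhibitors TIMP1 and TFPI2 were higher. TIMP1, an inhibitor of matrix metalloproteinases, was at 647, 789, 624 and 644 CPM and 380.1 and 348 CPM (adjusted p = 0.0907; 0.041 with the term for the split). TFPI2, a serine protease inhibitor, was at 156, 108, 75.1 and 108 CPM and 31.6 and 17.6 CPM (adjusted p = 0.0601; 0.0374). SERPINF1, which encodes the secreted factor PEDF, was lower at 6.83, 6.42, 9.26 and 11.7 CPM against 22.7 and 44.7 CPM (adjusted p = 0.0601; 0.0261). Of 43 metalloproteinase genes and inhibitors 11 (25.6%) were apart and higher and 6 apart and lower, and of 37 serpin and secreted protease genes 11 (29.7%) and 5.

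**Figure D3:**
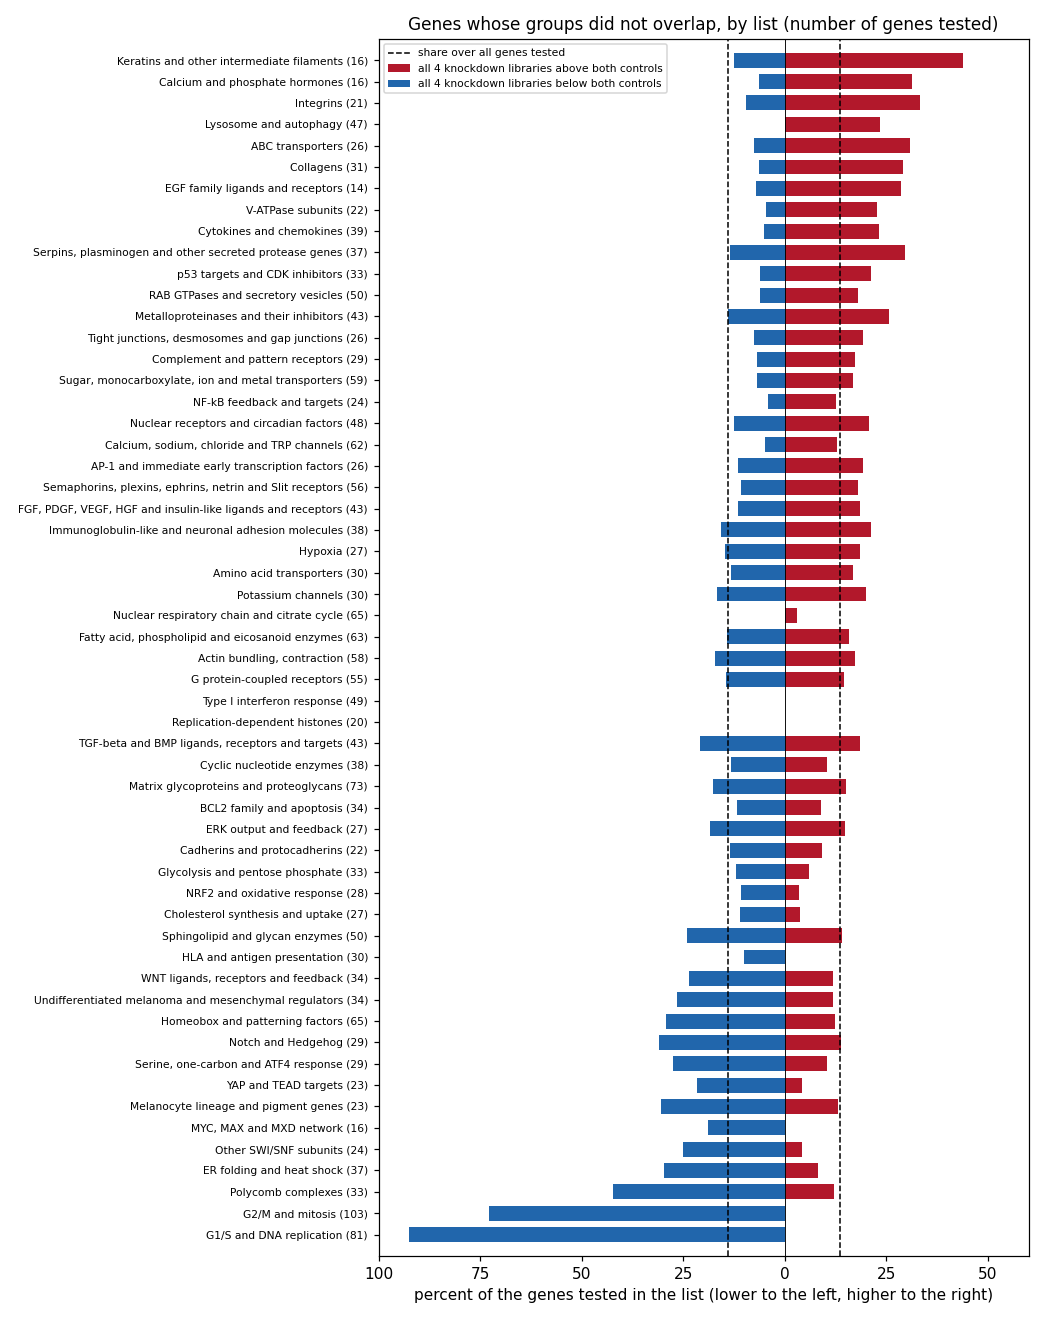
Share of the genes tested in each of 56 lists with at least 14 genes whose knockdown libraries all lay above both controls (red, to the right) or all below both controls (blue, to the left); dashed lines mark 13.5% and 14.0%, the shares over all 17849 genes. The G1/S list reaches 92.6% on the lower side and the keratin list 43.8% on the higher side.

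Keratins had the highest share on the higher side. Keratins form the intermediate filaments of epithelial cells, and of the 16 genes tested (other intermediate filaments included) 7 were apart and higher and 2 apart and lower. KRT80 rose 3.14-fold, from 27.1 and 22.6 CPM in the controls to 88.3, 73.3, 61.97 and 88.5 CPM (log2 1.65 ± 0.20 (SE), adjusted p = 0.0396). KRT7, KRT15 and KRT81 also stood apart. KRT15 was at 24.7, 13.3, 10.2 and 22.1 CPM and 6.44 and 5.29 CPM, KRT81 at 20.7, 41.7, 24.6 and 19.8 CPM and 12.4 and 6.84 CPM, and KRT7 at 5.96, 4.84, 4.02 and 5.90 CPM and 2.62 and 1.76 CPM, each above both controls in all 4 libraries. They passed with all 10 libraries (adjusted p = 0.0267, 0.0335 and 0.0193) but not in experiment 1 (0.118, 0.134 and 0.11). SYNM, a filament protein of muscle and glia, was lower at 66.3, 78.1, 89.2 and 113 CPM against 164 and 207 CPM, but did not pass in experiment 1. In the whole list, all 10 libraries gave 4 higher and 1 lower, and the term for the split 1 in each direction. The 13 epithelial markers summed to 330.2 to 389.7 CPM after knockdown and 265 and 275 CPM in the controls; KRT18, itself a keratin, made up most of this at 231, 264, 322 and 260.3 CPM and 196 and 218 CPM, and EPCAM was at 0.688, 0.621, 1.10 and 0.621 CPM and 0.668 and 0.574 CPM. CLDN4, a tight junction protein of the same list, was above both controls in each library, at 42.7, 20.5, 20.98 and 32.3 CPM and 18.4 and 14.96 CPM (adjusted p = 0.295). The part of such cells in the keratin values was not tested. CDH1, the epithelial cadherin, was at or under 0.083 CPM in every library. Of 26 desmosome and junction genes, 5 (19.2%, against 13.5% over all genes) were apart and higher and 2 apart and lower. In experiment 1 edgeR called 0 of these, with 8 at an unadjusted p under 0.05 (DESeq2 called 2 higher and 1 lower, limma-voom 0). DSC3, a desmosomal cadherin, was at 17.1, 15.9, 13.9 and 17.2 CPM and 8.40 and 10.5 CPM (adjusted p = 0.0245 with all 10).

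In the cytoskeleton, ARHGEF4 rose. It is a guanine nucleotide exchange factor that binds APC, and it was at 64.9, 39.2, 41.3 and 51.95 CPM and 16.03 and 13.3 CPM (log2 1.75 ± 0.25 (SE), adjusted p = 0.0494). Of 58 genes of actin bundling and contraction, 10 were apart and higher and 10 apart and lower. MYH10, a non-muscle myosin heavy chain, was lower at 123, 181, 189 and 140.3 CPM against 289 and 414 CPM, and SORBS2, an adaptor of stress fibres, higher at 105, 44.2, 75.2 and 139.8 CPM against 12.5 and 24.4 CPM (adjusted p = 0.0109 and 0.0185 with all 10 libraries).

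Vesicle and acidification genes held some of the largest rises. ATP6V0A4 (chromosome 7, 138706294 to 138799560) encodes the a4 subunit of the proton pump V-ATPase, a form known from acid-secreting kidney cells. It was at 93.5, 54.5, 91.3 and 121 CPM and 6.63 and 8.96 CPM. Knockdown 2 was the lowest of the 4 and still more than 6 times control 2, and the rise was 11.6-fold (log2 3.53 ± 0.36 (SE), adjusted p = 0.0349). None of the other pump genes, of 22 tested, passed in any of the 3 edgeR fits described. ATP6V1A, the catalytic subunit, was at 146, 142, 151 and 147 CPM and 116 and 120.1 CPM, and ATP6V0B at 152, 208, 194 and 156 CPM and 119 and 126 CPM, both above the controls without overlap. RAB27B, a GTPase that docks secretory vesicles and exosomes at the membrane, was at 22.2, 18.7, 18.1 and 13.9 CPM and 4.39 and 3.22 CPM. Its rise was 4.79-fold (log2 2.26 ± 0.26 (SE), adjusted p = 0.0396). RAB26, another secretory RAB, was at 12.9, 14.4, 13.4 and 11.2 CPM and 6.11 and 4.99 CPM (adjusted p = 0.0601; 0.041 with the term for the split).

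Lysosomal genes stood apart in 1 direction only, with 11 of 47 (23.4%) higher and 0 lower, at a small size: the median was 0.10, and 0.03, 0.31, 0.09 and 0.08 in knockdowns 1 to 4. In experiment 1 edgeR called 0 of them, with 6 at an unadjusted p under 0.05, and with all 10 libraries it called 3 (DESeq2 on experiment 1 also called 3, limma-voom 0). These were NEU1, a lysosomal sialidase, at 59.5, 91.5, 81.1 and 70.3 CPM and 41.98 and 43.9 CPM, NPC1, the lysosomal cholesterol exporter, at 173, 165, 151 and 159 CPM and 118 and 89.9 CPM, and SQSTM1, the autophagy receptor p62, at 982, 1332, 1313 and 1290 CPM and 675 and 750.5 CPM. Adjusted p with all 10 libraries was 0.0189, 0.017 and 0.0254 in that order.

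SLC7A5, whose E-box is shown above, was the most abundant gene among the rises. It encodes LAT1, a carrier of large neutral amino acids, and was at 833, 943, 786 and 901 CPM and 302 and 332 CPM. The 2 ranges were narrow and far apart, and the rise was 2.73-fold (log2 1.45 ± 0.18 (SE), adjusted p = 0.0396). SLC3A2, the glycoprotein it needs at the membrane, was at 378, 396, 357 and 408 CPM and 218 and 207 CPM (log2 0.86 ± 0.15 (SE)). SLC7A11, the cystine carrier that shares that partner, was at 137, 152, 146 and 161 CPM and 76.8 and 80.6 CPM (log2 0.92 ± 0.14 (SE)). Both missed the threshold in experiment 1 (adjusted p = 0.0649 and 0.0556) and passed with the term for the split (0.0389 and 0.0389). SLC7A2, a carrier of cationic amino acids, was lower at 25.8, 25.2, 23.5 and 26.6 CPM against 40.9 and 41.03 CPM (adjusted p = 0.0475 with that term). The whole list of 30 amino acid carriers had a median of 0.06, with 5 apart and higher and 4 apart and lower, which is near the background.

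Among other carriers and channels, SLC16A6 and ORAI3 rose. SLC16A6, of the monocarboxylate carrier family, rose 3.5-fold, from 2.53 and 2.25 CPM to 9.27, 9.65, 7.02 and 7.59 CPM (adjusted p = 0.0456). AQP3, a water and glycerol channel of skin, was at 62.5, 26.2, 20.2 and 43.8 CPM and 8.92 and 7.76 CPM, with knockdowns 1 and 4 above 2 and 3 (adjusted p = 0.017 with all 10 libraries). ABCC3, an exporter of organic anions, was at 53.1, 59.8, 39.2 and 44.3 CPM and 21.2 and 14.4 CPM (adjusted p = 0.0261 with the term for the split), in a list where 8 of 26 ABC transporters (30.8%) were apart and higher and 2 apart and lower. ORAI3, a pore subunit for calcium entry, rose 2.32-fold, from 8.49 and 10.2 CPM to 22.2, 21.2, 23.4 and 20.1 CPM (adjusted p = 0.0464). CLCN5, an endosomal chloride and proton exchanger, was lower at 17.8, 15.2, 16.5 and 18.4 CPM against 30.3 and 33.4 CPM (adjusted p = 0.041 with that term). The potassium channels KCNJ2 and KCNK1 were higher, at 4.17, 7.74, 6.45 and 7.28 CPM against 2.00 and 1.68 CPM and at 13.6, 14.9, 13.4 and 11.4 CPM against 6.01 and 6.79 CPM (adjusted p = 0.00819 and 0.00572 with all 10).

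In lipid metabolism TBXAS1 fell. It encodes thromboxane synthase, which makes the eicosanoid thromboxane, and was at 5.23, 5.22, 4.93 and 5.24 CPM and 18.4 and 14.1 CPM. The 4 knockdown libraries were nearly equal, and the fall was 1.65 ± 0.18 (SE) on the log2 scale (adjusted p = 0.0366). PLPP4, a phospholipid phosphatase, rose 2.62-fold, from 10.5 and 8.07 CPM to 24.1, 24.97, 24.2 and 24 CPM (adjusted p = 0.0396). LIPH, a phospholipase that makes lysophosphatidic acid, was higher at 6.15, 4.06, 2.01 and 3.28 CPM against 0.477 and 0.441 CPM, and ELOVL2, a fatty acid elongase, lower at 0.917, 1.08, 0.531 and 0.665 CPM against 4.53 and 2.38 CPM (adjusted p = 0.0415 and 0.0374 with the term for the split). The cholesterol list of 27 genes did not move as a whole: its median was -0.24, -0.38, -0.04 and 0.08 in knockdowns 1 to 4. ST8SIA1 and B4GALNT1, enzymes of ganglioside synthesis, were both lower, at 2.38, 1.53, 2.01 and 3.15 CPM against 4.82 and 10.4 CPM and at 57.2, 38.05, 49.2 and 60.2 CPM against 91.2 and 96.8 CPM (adjusted p = 0.0154 and 0.0142 with all 10).

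Central metabolism gave few changes. NMNAT2, an enzyme of NAD synthesis known from axons, rose 2.85-fold, from 14.3 and 10.3 CPM to 33.2, 39.01, 32.6 and 34.9 CPM (adjusted p = 0.0396). HKDC1, a hexokinase family member, was lower at 4.08, 6.87, 6.98 and 5.59 CPM against 19.6 and 15.7 CPM (adjusted p = 0.0475 with the term for the split). PHGDH, which opens serine synthesis, was lower at 64.6, 60.8, 96.5 and 84.03 CPM against 115 and 161 CPM. CTH, which makes cysteine, was higher at 14.04, 17.6, 10.7 and 12.9 CPM against 6.77 and 5.74 CPM. Both passed with that term (adjusted p = 0.0389 and 0.0475) and neither in experiment 1 without it. Of 65 nuclear genes of the respiratory chain and citrate cycle, 2 were apart and higher and 0 lower, and edgeR called 0 in experiment 1 and 0 with all 10 libraries, with 0 at an unadjusted p under 0.05 (DESeq2 and limma-voom called 0). That list's median was -0.23 in knockdown 1 and 0.045 to 0.293 in the others.

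Stress and growth-arrest genes were represented by BTG2. BTG2, an antiproliferative gene known as a p53 target, rose 3.01-fold: it was at 106, 89.1, 80.8 and 67.3 CPM and 30.5 and 26.5 CPM (adjusted p = 0.0428). Of the 33 p53 targets and CDK inhibitors, 7 (21.2%) were apart and higher and 2 apart and lower, and with all 10 libraries 3 were higher and 0 lower. TNFRSF10A, a TRAIL death receptor, was at 48.5, 55.98, 43.2 and 43.8 CPM and 34.97 and 28.9 CPM, and PLK3, a stress kinase, at 26.6, 23.7, 22.5 and 21.7 CPM and 18.03 and 14.6 CPM (adjusted p = 0.0342 and 0.0452 with all 10). Of 37 genes of endoplasmic reticulum folding and heat shock, 11 (29.7%, against 14.0% over all genes) were apart and lower and 3 apart and higher. In experiment 1 edgeR called 0 of them, with 10 at an unadjusted p under 0.05 (DESeq2 called 3 lower, limma-voom 0). MANF, secreted under stress of that compartment, was at 92.8, 87.4, 100.4 and 112 CPM and 142 and 178 CPM, and PDIA4, a disulfide isomerase, at 299, 333, 244 and 298 CPM and 442 and 423 CPM (adjusted p = 0.0139 and 0.034 with all 10). UBXN2B, a cofactor of the p97 ATPase, rose 2.1-fold, from 15.4 and 16.3 CPM to 31.4, 34.04, 36.2 and 31.6 CPM (adjusted p = 0.0456). SPRY4, a feedback inhibitor of ERK signalling, was lower at 320.3, 283, 243 and 273 CPM against 567 and 430.5 CPM (adjusted p = 0.041 with the term for the split); no other gene of the 27 in the ERK output list passed in any of the 3 edgeR fits.

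**Figure D4:**
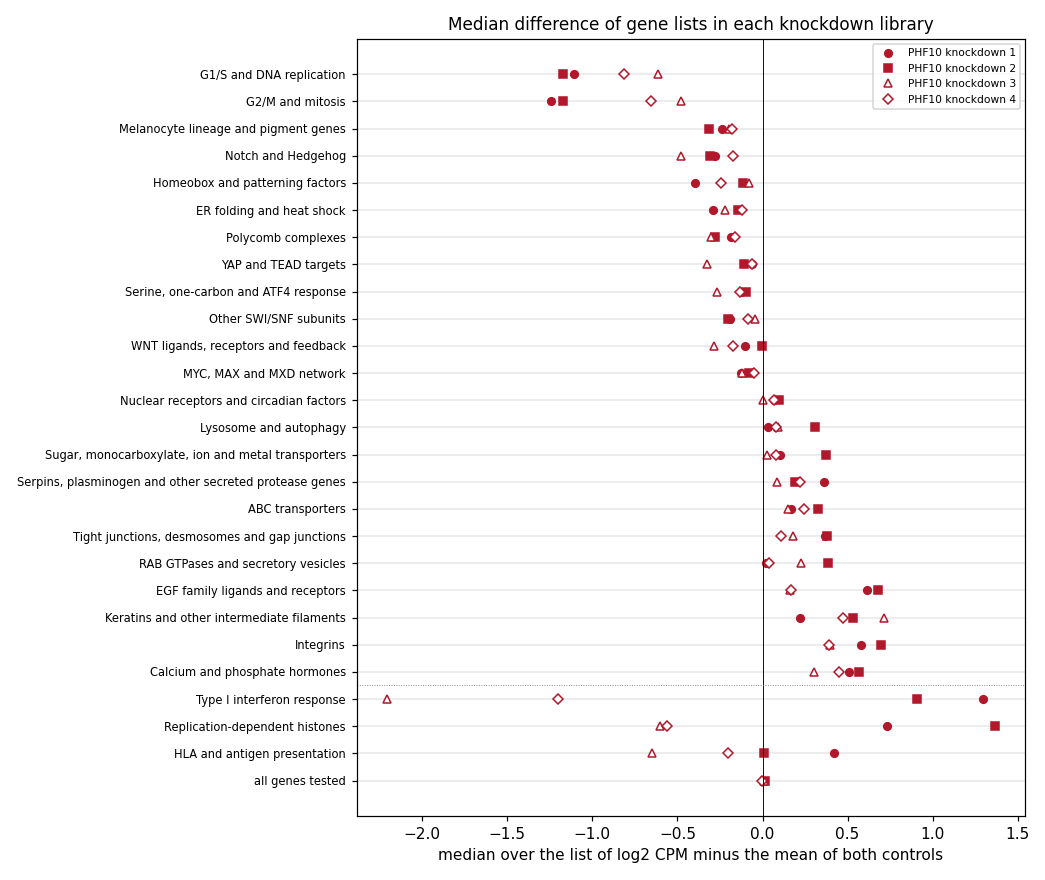
Median over each gene list of the difference in log2 CPM between a knockdown library and the mean of both controls, for the 23 lists of at least 14 genes whose median had the same sign in all 4 knockdown libraries and, under the dotted line, for 3 lists that moved with the interferon split and for all genes. The G1/S list lies between -1.17 and -0.62, the integrins between 0.39 and 0.70, and the interferon list between -2.21 and 1.29.

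Of the developmental regulators that passed, HOXB9, MEOX2, SOX11 and ZFP42 fell and LDB2 rose. HOXB9 (chromosome 17, 48621159 to 48626356), a homeobox gene of trunk patterning, was at 14.04, 14.7, 13.7 and 12.7 CPM and 44.2 and 34.3 CPM. No knockdown library reached 0.5 of the lower control, and HOXB9 fell by 1.51 ± 0.15 (SE) on the log2 scale (adjusted p = 0.0349). MEOX2, a homeobox factor of mesoderm, was at 57.8, 55.6, 71.99 and 77.4 CPM and 159 and 180.2 CPM (log2 -1.37 ± 0.17 (SE), adjusted p = 0.0396). SOX11, of the SOXC group, was at 70.3, 70.6, 82.95 and 60.2 CPM and 158 and 155 CPM (log2 -1.14 ± 0.15 (SE), adjusted p = 0.0428). ZFP42, known as the stem cell marker REX1, was at 10.1, 10.3, 10.2 and 11.5 CPM and 22.1 and 26.9 CPM (log2 -1.22 ± 0.16 (SE), adjusted p = 0.0405). ZNF853, a zinc finger gene, was low throughout, at 1.10, 1.49, 1.21 and 0.976 CPM and 4.48 and 4.19 CPM (log2 -1.85 ± 0.26 (SE), adjusted p = 0.0477). LDB2, an adaptor of LIM-homeodomain factors, was at 3.44, 3.48, 5.12 and 6.25 CPM and 0.286 and 0.221 CPM and rose 17.8-fold (log2 4.15 ± 0.45 (SE), adjusted p = 0.0366).

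Of 65 homeobox and patterning genes, 19 (29.2%) were apart and lower and 8 apart and higher, and with all 10 libraries 6 were lower and 1 higher. No other gene of the HOXB cluster passed in experiment 1. HOXB8 was at 40.4, 50.7, 37.7 and 37.6 CPM and 83.96 and 57.9 CPM (adjusted p = 0.0295 with all 10 libraries). HOXB5 was at 15.6, 14.99, 16.2 and 15.2 CPM and 33.5 and 18.1 CPM, apart but past none of the 3 edgeR fits (adjusted p = 0.194). HOXB3, at 36.1, 37.4, 35.1 and 37.2 CPM and 42.1 and 35.2 CPM, and HOXB7, at 26.6, 29.4, 32.7 and 27.5 CPM and 34.7 and 30.2 CPM, overlapped. Of the 9 HOXB genes tested, 3 were apart and lower, and control 1 was above control 2 in all 9.

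**Figure D5:**
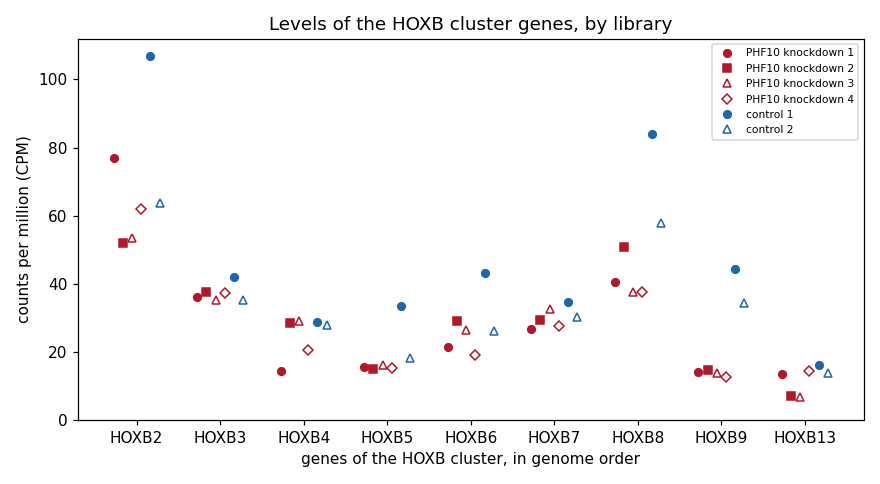
Levels of the 9 HOXB genes tested, in CPM and in genome order along the cluster (spacing not to scale); symbols as in the plot of genes that passed. HOXB9 is at 12.7 to 14.7 CPM in the knockdown libraries and at 34.3 and 44.2 CPM in the controls, while the groups overlap for HOXB2, HOXB3, HOXB4, HOXB6, HOXB7 and HOXB13.

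In the melanocyte lineage and pigment list edgeR called 0 of 23 in experiment 1, with 6 at an unadjusted p under 0.05 (DESeq2 called 3 lower, limma-voom 0). S100B, a calcium-binding marker of melanoma and glia, was at 27.3, 34, 46.6 and 39.5 CPM and 75.1 and 83.8 CPM, and TFAP2B, a neural crest factor, at 68.1, 85.2, 107 and 99.9 CPM and 171 and 248 CPM (adjusted p = 0.041 and 0.0335 with the term for the split). Neither passed without that term (0.0714 and 0.0666). SOX10 was below both controls in every library (log2 -0.38 ± 0.18 (SE), adjusted p = 0.361), while MITF overlapped. Of the 23 genes tested, 7 (30.4%) were apart and lower and 3 apart and higher. Among factors of the mesenchymal state, TWIST1 was lower at 7.16, 8.16, 11.99 and 14.9 CPM against 24.3 and 32.5 CPM (adjusted p = 0.0374 with that term). SNAI2 was lower at 0.596, 1.08, 1.44 and 1.02 CPM against 2.53 and 5.34 CPM (adjusted p = 0.0141 with all 10 libraries), whereas RUNX1 was higher at 72.8, 67.2, 59.9 and 68.2 CPM against 41.3 and 47.2 CPM (adjusted p = 0.0155 with all 10 libraries).

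Polycomb genes, whose products keep developmental genes silent through histone marks, were lower in 14 of 33 cases without overlap (42.4%) and higher in 4. In experiment 1 edgeR called 0 of them, with 14 at an unadjusted p under 0.05 (DESeq2 called 1 higher and 4 lower, limma-voom 0). CBX2, a reader of the Polycomb mark, was at 20.96, 13.8, 21.3 and 22.9 CPM and 48.8 and 52.6 CPM. It missed the threshold by little (log2 -1.36 ± 0.21 (SE), adjusted p = 0.0565) and passed with the term for the split (0.041). CBX7, another reader, went the other way, at 20.9, 24.4, 20.2 and 19.9 CPM against 12.7 and 12.8 CPM (adjusted p = 0.0127 with all 10 libraries). EPOP and EED, partners of the methylating complex PRC2, were at 13.7, 16.6, 15.9 and 13.9 CPM against 24.8 and 25.9 CPM and at 32.9, 28.9, 31.3 and 32.3 CPM against 44.1 and 40.5 CPM (adjusted p = 0.00769 and 0.0301 with all 10 libraries). RBBP4, shared with other chromatin complexes, was at 109.5, 122, 143 and 115 CPM and 183 and 181 CPM (adjusted p = 0.0227 with all 10 libraries). Some of these genes are known to be higher in dividing cells, and the 81 genes of the G1/S list, with 75 (92.6%) apart and lower, moved with them; the part of proliferation was not tested.

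Replication and division genes are given here in brief. Those that fell include HELLS, a remodeller of the SNF2 family that opens heterochromatin to DNA methylation, whose promoter is shown above. It was at 27.4, 23.9, 30.4 and 30.4 CPM and 57.4 and 57.4 CPM (log2 -1.03 ± 0.14 (SE), adjusted p = 0.0464). GINS1, a part of the replicative helicase, was at 12.8, 14.9, 13.9 and 16.1 CPM and 42.9 and 37.7 CPM (log2 -1.48 ± 0.15 (SE)). CLSPN, the checkpoint adaptor claspin, was at 22.2, 21.5, 29.1 and 25.9 CPM and 65.7 and 58.2 CPM (log2 -1.33 ± 0.16 (SE)). DTL, which marks replication proteins for destruction, was at 35.5, 26.1, 36.96 and 35.1 CPM and 102 and 83.04 CPM (log2 -1.47 ± 0.17 (SE)), and WDHD1, a replisome adaptor, at 9.54, 9.15, 10.4 and 7.94 CPM and 23.5 and 19.9 CPM. BRCA1, RAD51AP1 and RAD54L, which act in repair by recombination, had log2 fold changes of -1.07, -1.31 and -1.19. KIF18B, a mitotic kinesin, and KNTC1, a kinetochore protein, had -1.46 and -0.88. In these genes, too, knockdown and control libraries did not overlap.

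Some lists moved with the interferon split. In the interferon list of 49 genes edgeR called 0, in experiment 1, with all 10 libraries and with the term for the split, with 0 at an unadjusted p under 0.05, and DESeq2 and limma-voom called 0. Its median in knockdowns 1 to 4 was 1.29, 0.91, -2.21 and -1.20. Replication-dependent histone genes, whose transcripts mostly lack poly(A) tails, had medians of 0.73, 1.37, -0.60 and -0.56, and HLA and antigen presentation genes 0.42, 0.01, -0.65 and -0.20. Of these 20 histone and 30 HLA genes, 0 passed in any of these fits, with 0 at an unadjusted p under 0.05. In the HLA list the class II gene HLA-DRA was nonetheless below both controls in each library, at 657, 740.5, 855 and 898 CPM against 1016 and 1058 CPM (adjusted p = 0.375).

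Long non-coding RNAs supplied 3 named rises. LINC00973 was at 13.2, 14.3, 10.97 and 11.9 CPM and 2.86 and 1.94 CPM (log2 2.39 ± 0.25 (SE), adjusted p = 0.0366). LINC01711 was at 8.85, 7.74, 7.70 and 8.03 CPM and 2.29 and 2.25 CPM (log2 1.83 ± 0.21 (SE), adjusted p = 0.0396). MIRLET7IHG, the host transcript of a let-7 microRNA, was at 24.4, 21.7, 27.3 and 25.02 CPM and 8.21 and 10.5 CPM (log2 1.39 ± 0.18 (SE), adjusted p = 0.0428); the microRNA itself is not measured by these libraries. In all 3 the knockdown libraries lay close together and above both controls. The largest fold change among the 50 genes belonged to the unnamed gene ENSG00000250657 on chromosome 4, at 2.38, 1.49, 1.37 and 2.00 CPM and 0.0954 and 0.0441 CPM (log2 4.61 ± 0.55 (SE)), where the controls rest on a few reads and the fitted value depends on the prior count.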

How the data were processed

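The authors deposited a table of raw read counts per gene for each library; per the submitters' processing notes, cutadapt, STAR and GRCh38.p13 (hg38) were used. No tool version or annotation is named in those notes. The fourth column was taken as the strand-specific count; counts on the other strand were 5.26% to 5.55% of the 2 strands together. Summary lines (20.3% to 23.6% of reads) were left out. Of 60623 gene IDs, 60295 were matched to a symbol and 58516 to a position in GENCODE 29.

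Genes with too few reads were removed (edgeR filterByExpr by group), and the 6 libraries were scaled by TMM and tested with edgeR 4.0.16 (robust quasi-likelihood, R 4.3.3), with p-values adjusted over all 17849 genes by the Benjamini-Hochberg method. CPM values use the scaled library sizes; log2 CPM differences use a prior count of 2. The script was tested on simulated counts. Alternatives were DESeq2 1.42.0, limma-voom (limma 3.58.1), 2 other scalings, no filter, a filter at higher counts, unstranded counts, all 10 libraries, a replicate block, a term for the interferon split and each library left out. Reads of overlapping or near-identical genes may be shared between them.

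Named genes are PHF10, MYC, the 15 largest rises and 15 largest falls (mean of at least 2 CPM, outside the proliferation lists) and, of each of 63 gene lists, the members past the threshold and up to 4 more with the smallest p; a few of these are not reported here. The libraries, lists and the interferon split were chosen with earlier results of these data known. PLPP4, ORAI3, UBXN2B, ZFP42, SOX11, KNTC1, GLI3, EED, NRP2, the non-coding genes, UCK2, the marker genes and the HOXB neighbours fall outside that rule or were chosen after their values were seen. Of 2463 symbols in the lists, 2456 were matched and 2142 tested.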

Additional observations from a re-analysis of the deposited data

Results flagged for a closer look

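In 5 of the 165 values checked within the 4 knockdown libraries, 1 library stood apart from the other 3 by more than Dixon's test allows for 4 samples. Chance alone flags about 1 in 20 such groups. EXTL1 was at 33.3 CPM in knockdown 1 against 51.1 to 52.4 CPM in the other 3. SQSTM1 was at 982.0 CPM in knockdown 1 and TIMP1 at 789.0 CPM in knockdown 2. TBXAS1 was at 4.93 CPM in knockdown 3, a small distance from the others in absolute terms, and EPCAM at 1.1 CPM in knockdown 3. EXTL1 and TBXAS1 stayed far below both controls in every knockdown library.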

How the results depend on the processing

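The count of 23 higher and 27 lower genes differed between fits. It was 209 and 294 with no filter, 508 and 661 with all 10 libraries, 141 and 216 with the term for the interferon split and 511 and 516 with DESeq2. Upper-quartile scaling gave 13 lower and limma-voom 14 lower. With 1 library left out, 0 to 2 genes were higher and 0 were lower, and with 1 control left its spread was assumed to be that of the other group. The log2 fold change of PHF10 was -1.3054 to -1.1834 with 1 library left out, where it no longer passed (adjusted p = 0.0668 to 0.303). The cause of these shifts was not tested. With a replicate block, 0 genes were higher and 0 lower (2565 at an unadjusted p under 0.05), and PHF10 was at -1.1724. Same-numbered libraries deviated together for number 1 (r = 0.503) and apart for number 2 (r = -0.315). The deviations of the 2 controls from their own mean mirror each other, so these values cannot decide whether the numbers pair the samples. The labels do not state a pairing, and for that reason the main fit has no block. Some genes that did not pass changed sign. With the block, CD14 was at 0.3698, GBP1 at 0.1561, IFIT2 at 0.6795 and KDR at -0.3565, and KDR was at -0.4242 with limma-voom. With 1 library left out, CD14 ranged from -0.4174 to 0.1336, GBP1 from -1.7264 to 0.8697, HOXB3 from -0.1993 to 0.0419, IFIT2 from -2.1913 to 2.2321 and KDR from -0.2815 to 1.0483. Of the 63 list medians, 29 changed sign with 1 library left out.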
